A study of Mus musculus with 45 samples.

Results

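The let-7 and miR-98 family was read in alveolar macrophages (AM) as 10 mature miRNAs, listed as mmu-let-7a-5p, mmu-let-7b-5p, mmu-let-7c-5p, mmu-let-7d-5p, mmu-let-7e-5p, mmu-let-7f-5p, mmu-let-7g-5p, mmu-let-7i-5p, mmu-let-7k and mmu-miR-98-5p and named here without the species prefix. Its members were chosen by name, and all 10 were listed in each of the 6 deposited tables, which held from 234 to 448 miRNAs each, 476 in all and 206 in common. The tables came from 45 mice aged 12 weeks, in 12 groups of genotype, sex and exposure. All mice lacked the mouse SP-A gene on a C57BL/6J background: SP-A2 mice carried the human SP-A2 variant 1A0, co-ex mice carried the human SP-A1 and SP-A2 variants 6A2/1A0, and KO mice carried neither. They breathed filtered air (FA) or ozone (O3, 2 ppm) for 3 h, and AM were collected from bronchoalveolar lavage after 18 h. There were 3 SP-A2 males after FA and 3 after O3, 4 co-ex males after FA and 3 after O3, and 4 mice after each exposure in KO males and in the females of all 3 genotypes. The treatment text names 3 co-ex males per exposure, and the 4 that carry the FA label were all used. Females were synchronized for the estrous cycle.

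let-7 miRNAs are small RNAs that guide Argonaute proteins to messenger RNAs, which are then translated less or degraded. The bases just behind the 5′ end, the seed, carry most of the pairing, so miRNAs with the same seed form a family with many shared targets. The family is known for its rise during differentiation, for its block by LIN28, and for targets such as Ras, Myc and Hmga2 transcripts. In macrophages, let-7 miRNAs have been tied to the control of cytokine transcripts.

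The mature sequences of the members are shown because the small differences behind the shared seed decide how reads are told apart (RefSeq, GRCm38.p6, 5′ to 3′, with bases 2 to 8, the seed, in capitals).
let-7a-5p: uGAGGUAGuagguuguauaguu
let-7b-5p: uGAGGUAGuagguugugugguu
let-7c-5p: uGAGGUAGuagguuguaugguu
let-7d-5p: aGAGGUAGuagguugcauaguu
let-7e-5p: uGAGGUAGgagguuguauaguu
let-7f-5p: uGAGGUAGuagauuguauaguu
let-7g-5p: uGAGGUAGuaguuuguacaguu
let-7i-5p: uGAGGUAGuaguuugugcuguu
let-7k: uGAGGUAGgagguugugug
miR-98-5p: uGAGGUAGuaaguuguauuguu

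All 10 members carried the seed GAGGUAG. Counted from 1 at the 5′ end and from let-7a-5p, let-7c-5p differed by A19G, let-7e-5p by U9G and let-7f-5p by G12A, so each of these 3 was 1 base from let-7a-5p. let-7b-5p differed by A17G and A19G, let-7d-5p by U1A and U16C, let-7g-5p by G12U and U18C, and miR-98-5p by G11A and A19U. let-7i-5p was the farthest of the members with 22 bases, with 4 differences (G12U, A17G, U18C and A19U). let-7k, of 19 bases, differed by U9G, A17G and A19G over its length. A row for let-7j was also listed in some tables, but its seed, GAGGUAU, is not that of the family, and it was not a member. How reads with a mismatch were assigned is not given in the sources used here, so the split of reads between neighbours such as let-7a-5p, let-7c-5p and let-7f-5p is uncertain.

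The members arise from 13 hairpins (GRCm38.p6). On chromosome 13, Mirlet7a-1 (chr13:48538179-48538272), Mirlet7f-1 (chr13:48537829-48537917) and Mirlet7d (chr13:48536012-48536114) lie in an exon of the lincRNA 6720427I07Rik. On chromosome 15, Mirlet7c-2 (chr15:85706603-85706697) and Mirlet7b (chr15:85707319-85707403) lie in an exon of Lncppara. Mirlet7c-1 (chr16:77599657-77599750) lies in an intron of Mir99ahg, between Mir99a and Mir125b-2, and Mirlet7e (chr17:17830352-17830444) lies in an intron of Spaca6, between Mir99b and Mir125a. Mirlet7a-2 (chr9:41536716-41536811) stands between Mir100 and Mir125b-1 within the noncoding genes 3110039I08Rik and Gm49317. Mirlet7g (chr9:106178840-106178927) lies in an intron of Wdr82, Mirlet7i (chr10:122985640-122985724) in an exon of the pseudogene D630033A02Rik, and Mirlet7f-2 (chrX:151912346-151912428) and Mir98 (chrX:151913214-151913321) in an intron of Huwe1. Mir7k (chr5:147283189-147283298), the source of let-7k, overlaps no annotated gene on its strand. let-7a-5p, let-7c-5p and let-7f-5p each have 2 hairpins, whose reads cannot be separated.

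The reads on listed miRNAs numbered from 137965 to 2884013 per mouse, with a median of 766213. None of the 6 myeloid marker miRNAs was at 0 in all mice of an exposure in a table. In 4 mice the 6 myeloid marker miRNAs, such as miR-223-3p and miR-142a-3p, summed to less than 10000 rpm (reads on a miRNA for each 1000000 listed reads of the mouse), from 3690.1 to 8141, against 11128 to 191555 in the other 41. In the same 4 mice the erythroid markers, led by miR-451a, summed from 162205 to 369419 rpm, above the 142873 rpm that was the highest elsewhere. They were co-ex male FA replicate 3, co-ex male O3 replicate 2, KO female FA replicate 3 and KO female O3 replicate 4. let-7b-5p and let-7c-5p together made up 41.9% to 44.6% of the family reads in these 4 mice and 3.90% to 48.4% in the other 41. After FA, co-ex male replicate 3 stood at 43.2% and KO female replicate 3 at 42.8%, above the 3.90% to 25.8% of the other 21 FA mice. After O3 the other 20 mice ranged from 4.31% to 48.4%. Member calls that rest on the 4 mice of low myeloid markers are given with and without them. The marker sums that follow include these mice, as do the differences within the co-ex male and KO female tables.

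The family took 17.6% to 54.1% of the listed reads (median 30.1%, n = 45). let-7a-5p was the most abundant member, with a median of 118500.0 rpm, and it was the first of all listed miRNAs in 22 of the 45 mice. let-7f-5p followed with a median of 46289 rpm. let-7d-5p (31008 rpm), let-7b-5p (28142 rpm), let-7c-5p (23849 rpm), let-7e-5p (21123 rpm) and let-7g-5p (16365 rpm) formed a middle rank, and the ranges of neighbours in this order overlapped widely. let-7i-5p stood at 9286 rpm and miR-98-5p at 1316 rpm. let-7k was near the floor of detection, with 1 to 227 reads per mouse and a median of 9, so its values are imprecise. These levels in rpm were not divided by length, since 9 of the members have the same length.

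**Figure D1:**
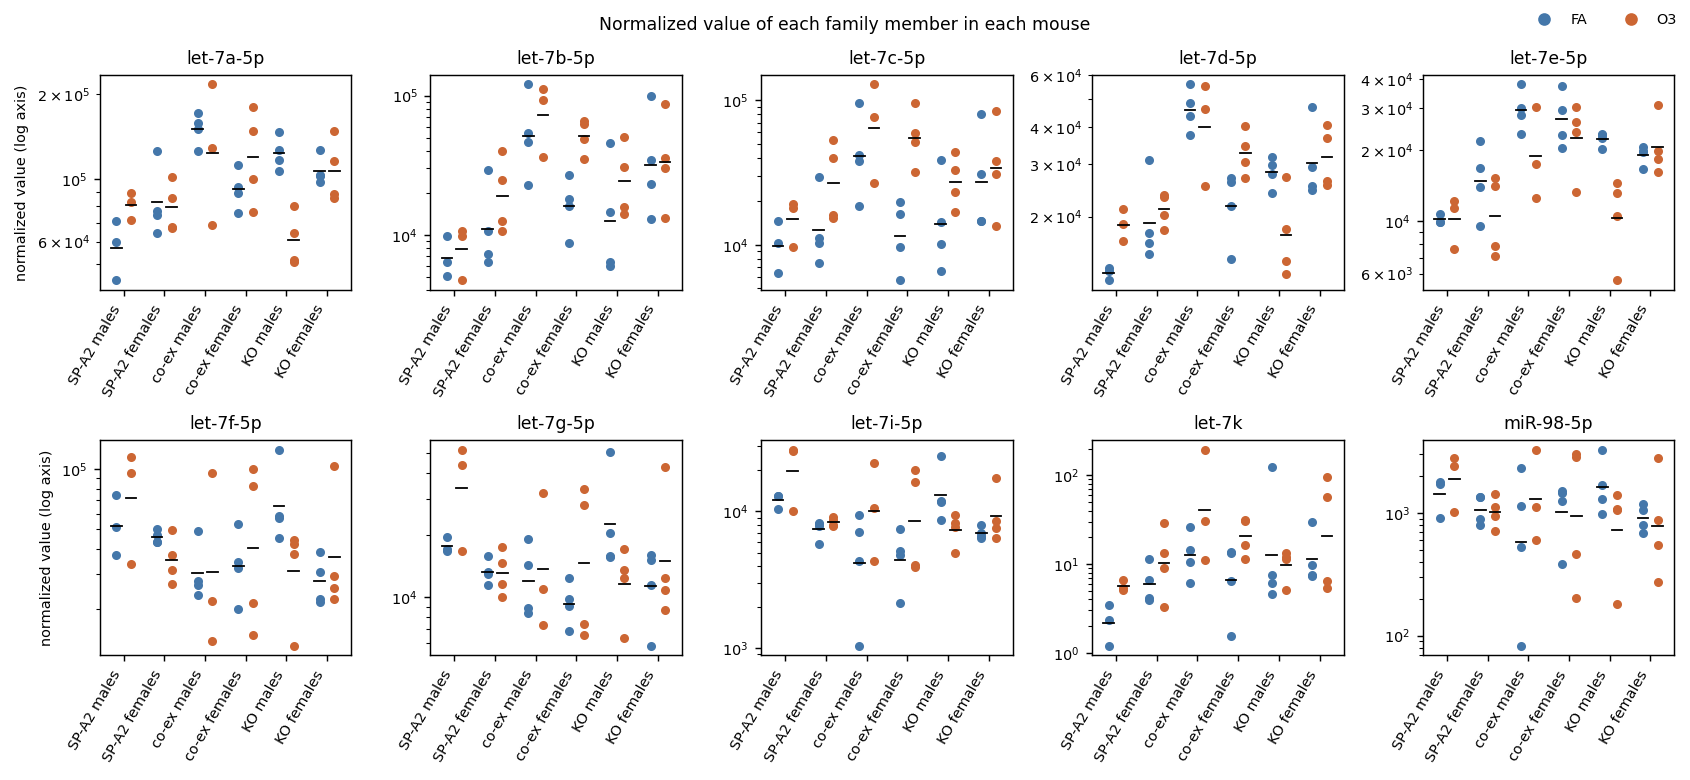
Normalized value (log axis) of each of the 10 members in each mouse, by table, with FA in blue and O3 in orange. Black dashes are geometric means. let-7b-5p and let-7c-5p of the co-ex females show O3 mice above FA mice without overlap, and let-7a-5p, let-7e-5p and let-7f-5p of the KO males show the opposite.

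The first question was whether O3 changed the family. Averaged over the 6 tables, let-7c-5p and let-7b-5p rose and let-7e-5p fell after O3. let-7c-5p ranged from 7296 to 57999 with a median of 19155 rpm in the 23 FA mice and from 9573 to 100240.0 with a median of 37569 rpm in the 22 O3 mice. let-7b-5p ranged from 6226 to 72609.9 with a median of 20878 rpm after FA and from 4626 to 86727 with a median of 38029 rpm after O3. let-7e-5p ranged from 11196 to 48154 with a median of 25261 rpm after FA and from 5756 to 31209.6 with a median of 15801 rpm after O3. All 3 overlapped widely between the exposures when genotypes and sexes were mixed. The log2 difference within tables was 0.99 ± 0.26 (SE, adjusted p = 0.0041) for let-7c-5p, 0.70 ± 0.27 (SE, adjusted p = 0.062) for let-7b-5p and -0.40 ± 0.14 (SE, adjusted p = 0.033) for let-7e-5p (limma on log2(normalized value + 1), Benjamini-Hochberg adjusted over the 206 shared miRNAs, FDR 0.1). In this average 25.7% of all miRNAs were called, and the 3 of 10 members stand near that share. The median log2 difference was 0.19 over all 206 miRNAs and 0.14 over the members.

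The other 7 members did not pass the test. let-7a-5p, the most abundant, differed by -0.08 ± 0.12 (SE, adjusted p = 0.74) on the log2 scale, and let-7f-5p by -0.05 ± 0.23 (SE, adjusted p = 0.93). let-7d-5p, let-7g-5p and miR-98-5p lay between 0.00 and 0.20. let-7i-5p differed by 0.45 ± 0.23 (SE, adjusted p = 0.17) and let-7k by 0.88 ± 0.43 (SE, adjusted p = 0.15). Without co-ex male O3 replicate 3, both of these were called, let-7i-5p at 0.55 (adjusted p = 0.081) and let-7k at 1.04 (adjusted p = 0.086), and let-7k was also called without KO male FA replicate 4 at 1.06 (adjusted p = 0.062).

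Without the 4 mice of low myeloid markers, the differences were 1.05 (adjusted p = 0.0021) for let-7c-5p, 0.75 (adjusted p = 0.033) for let-7b-5p and -0.41 (adjusted p = 0.052) for let-7e-5p. The call of let-7b-5p depended on the scaling: it was lost after median-ratio rescaling at 0.59 (adjusted p = 0.11) and in edgeR on recovered reads at 0.41 (adjusted p = 0.29), whereas let-7c-5p, at 0.74 (adjusted p = 0.042), and let-7e-5p, at -0.53 (adjusted p = 0.0064), were called in edgeR too. The median of all miRNAs was -0.08 in edgeR.

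**Figure D2:**
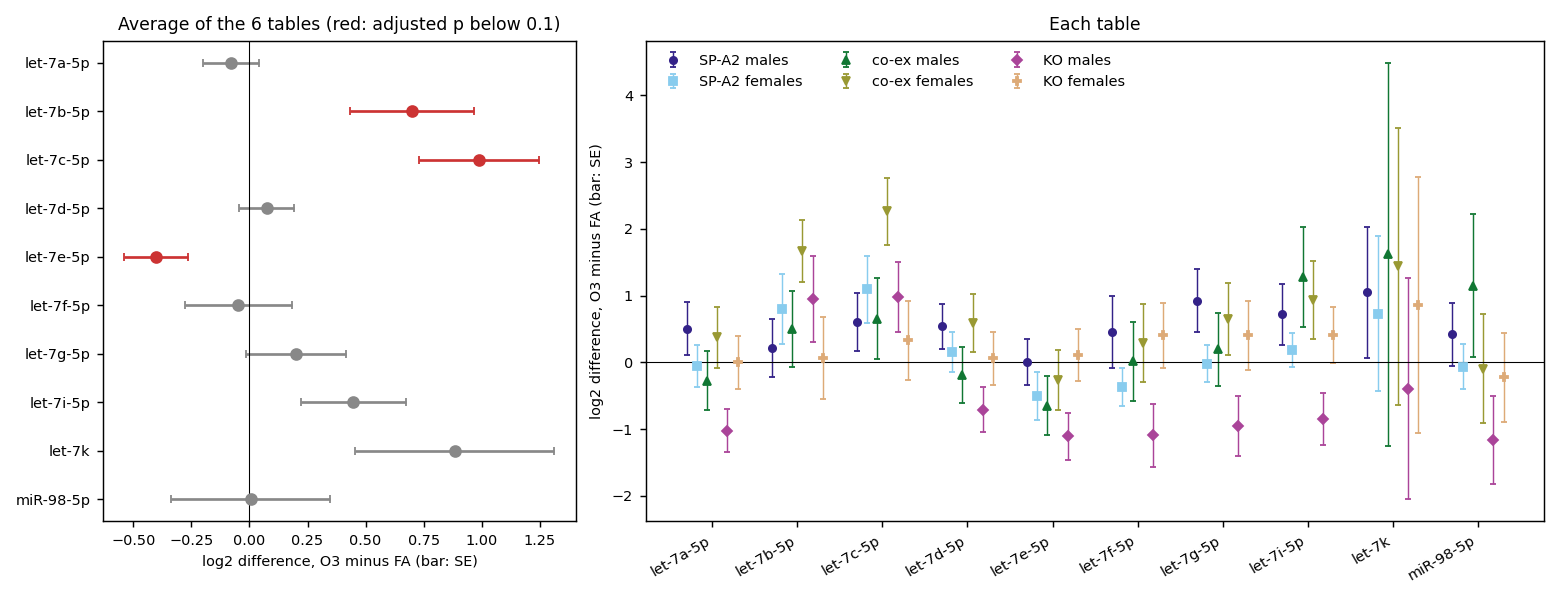
Log2 difference between O3 and FA for each member, averaged over the 6 tables (left, red where adjusted p is below 0.1) and in each table (right), with SE as bars. let-7c-5p and let-7b-5p lie above 0 and let-7e-5p below 0 in the average, and the KO males lie below 0 for every member except let-7b-5p and let-7c-5p.

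Markers of other cell types moved with O3 as well. Over all mice the epithelial markers, of which up to 13 were listed in a table, summed from 1080.2 to 14303 (median 6616) rpm after FA and from 6685 to 26736 (median 12728) rpm after O3, and the mesenchymal markers, of which up to 7 were listed, from 121 to 3073 (median 1097) rpm after FA and from 1692 to 12126 (median 4907) rpm after O3. Of the markers tested in the average, 7 of 9 epithelial and 4 of 4 mesenchymal ones rose, among them miR-200c-3p by 0.67 ± 0.21 (SE, adjusted p = 0.024) and miR-143-3p by 3.19 ± 0.45 (SE, adjusted p = 2.7e-06). The myeloid markers summed from 3690.1 to 191555 (median 58028) rpm after FA and from 7021 to 161673 (median 39831) rpm after O3. Within tables, 1 of 6 was called lower in the SP-A2 males and 1 of 6 in the SP-A2 females, and none elsewhere. In the average, where 25.7% of all miRNAs were called, none of 6 myeloid and 2 erythroid markers was called. Of 3 lymphoid markers 1, miR-181a-5p, fell, and no endothelial marker was listed in all tables. Where they were listed, the endothelial markers summed to 0 to 36.4 rpm after FA and 36.8 to 368 rpm after O3 in the SP-A2 mice, with 1 of 2 called higher in the SP-A2 males, and to 0 to 0.970 rpm and 0 to 1073 rpm in the KO males. None of the listed epithelial and mesenchymal markers was at 0 in all mice of an exposure within a table. The part of epithelial, mesenchymal and endothelial cells in the rise of let-7b-5p and let-7c-5p was not tested. In such bulk samples, fewer cells of a type and less RNA per cell cannot be told apart.

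In the single tables, 1 member was called in the co-ex females and none in the other tables. let-7c-5p of the co-ex females had normalized values of 16264, 9678, 19694 and 5669 after FA and of 51635, 32139, 59117 and 95568 after O3. All 4 O3 mice lay above all 4 FA mice. The log2 difference was 2.26 ± 0.50 (SE, adjusted p = 0.022) in limma, where 1.38% of all miRNAs of the table were called. The call was lost without FA replicate 1 at 2.43 (adjusted p = 0.11) and without FA replicate 2 at 2.18 (adjusted p = 0.13). It was also lost in edgeR on recovered reads, at 2.14 (adjusted p = 0.18) with TMM and 2.10 (adjusted p = 0.19) with RLE, while DESeq2 called it at 2.10 (adjusted p = 0.0044).

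let-7b-5p, the neighbour of let-7c-2 on chromosome 15, had values of 18049, 8764, 26788 and 16224 after FA and of 48493, 34906, 65430.2 and 62841 after O3 in the co-ex females. These groups did not overlap either, as for 7.93% of the miRNAs of this table. The difference of 1.67 ± 0.46 (SE, adjusted p = 0.11) missed the threshold in limma, and it was called without FA replicate 3 at 1.91 (adjusted p = 0.064) or without O3 replicate 2 at 1.85 (adjusted p = 0.068). In this table the mesenchymal markers summed from 121 to 1097 (median 325) rpm after FA and from 1878 to 7578 (median 5385) rpm after O3. These sums did not overlap between the exposures here or in any other table.

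In the KO males most members were lower after O3 than after FA, though none passed the test (5.18% of all miRNAs did). let-7a-5p had values of 146584, 116357, 107049.5 and 126552 after FA and of 64558, 80450.2, 50827 and 51444 after O3. let-7e-5p had values of 23058, 23466, 22423 and 20189.6 after FA and of 13142, 14505, 5615 and 10561 after O3. let-7f-5p had values of 125557, 45201, 57121 and 58226 and of 44175, 37604, 42212 and 13084. In these 3 members every FA mouse lay above every O3 mouse, and 8.84% of the miRNAs of the table did not overlap in either direction.

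The log2 difference in the KO males was -1.02 ± 0.33 (SE, adjusted p = 0.13) for let-7a-5p, -1.11 ± 0.36 (SE, adjusted p = 0.14) for let-7e-5p and -1.09 ± 0.47 (SE, adjusted p = 0.32) for let-7f-5p in limma. let-7b-5p, at 0.95, and let-7c-5p, at 0.98, lay on the other side of 0. The median over the 10 members was -0.90, and that over all miRNAs -0.29. let-7c-5p was called without FA replicate 2 at 1.48 (adjusted p = 0.088). The calls of this table changed with the tool: edgeR called let-7a-5p and let-7e-5p, and DESeq2 called these and let-7f-5p, let-7g-5p and let-7i-5p, all lower after O3. In the same table the mesenchymal markers summed to 172 to 1675 rpm after FA and 4453 to 7814 rpm after O3. Of these markers, 2 of 5 were called higher. Their sums did not overlap between the exposures in any table. In the SP-A2 males they were 1643 to 3073 rpm after FA and 5343 to 12126 rpm after O3. The myeloid markers of the KO males summed to 52920.5 to 111315 rpm after FA and 30649 to 109013 rpm after O3. The part of these cells in the lower let-7 values was not tested.

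In the SP-A2 males 9 members had differences above 0 and let-7e-5p one of 0.00, which was -0.05 in edgeR, with a median of 0.52 against 0.17 over all miRNAs, and none was called (0.670% of all miRNAs were). let-7a-5p had values of 43677, 71056 and 59636 after FA and of 82665, 89294 and 71265 after O3. let-7a-5p, let-7d-5p and let-7k did not overlap between the exposures, as for 22.3% of the miRNAs of this table of 3 against 3 mice. let-7g-5p and let-7i-5p had O3 replicate 3 at 16830.1 and 10005, near or below the lowest FA values, and without that mouse both were called, at 1.43 (adjusted p = 0.018) and 1.22 (adjusted p = 0.029).

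No member was called in the SP-A2 females (1.07% of all miRNAs), the co-ex males (0%) or the KO females (0%), and in these tables O3 and FA mice overlapped for every member, while 5.09%, 7.26% and 4.18% of all miRNAs did not overlap. At an unadjusted p below 0.05, limma counted 1, 0 and 0 members there, and edgeR and DESeq2 called none after adjustment. let-7c-5p lay above 0 in all 6 tables, from 0.33 in the KO females to 2.26 in the co-ex females, on the log2 scale, and it did so in edgeR and DESeq2 as well.

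let-7b-5p also lay above 0 in all 6 tables in limma, from 0.06 in the KO females to 1.67 in the co-ex females, but in the KO females it turned to the lower side after median-ratio rescaling, in edgeR and in DESeq2 (at -0.18 in the last). The remaining members took both signs across the tables. On the log2 scale let-7a-5p ran from -1.02 in the KO males to 0.50 in the SP-A2 males, and let-7d-5p from -0.71 in the KO males to 0.59 in the co-ex females. let-7g-5p ran from -0.96 in the KO males to 0.93 in the SP-A2 males, and let-7i-5p from -0.85 in the KO males to 1.28 in the co-ex males. The KO males held the lowest value of each of these members. miR-98-5p ran from -1.16 in the KO males to 1.15 in the co-ex males, with SEs as large as 1.08, and let-7k from -0.40 to 1.62 with SEs as large as 2.87. let-7e-5p was on the lower side in the SP-A2 females (-0.50), co-ex males (-0.65), co-ex females (-0.26) and KO males, and at 0.11 in the KO females.

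Whether the response differed between groups was tested directly in 1 limma fit over the 206 shared miRNAs. No member was called for a difference among the 6 tables (0% of all miRNAs), and 2 members had an unadjusted p below 0.05. let-7a-5p had the smallest adjusted p of the members, 0.48. Between males and females, no member was called in SP-A2 (0%), co-ex (0%) or KO mice (0%), with 0, 0 and 2 members at an unadjusted p below 0.05. In KO mice the male minus female difference of the response was -1.02 ± 0.40 (SE, adjusted p = 0.48) for let-7a-5p and -1.22 ± 0.45 (SE, adjusted p = 0.48) for let-7e-5p, on the log2 scale. Between genotypes, no member was called for SP-A2 against co-ex (0.485%), SP-A2 against KO (0%) or co-ex against KO (0.971%), with 0, 2 and 1 members at an unadjusted p below 0.05. DESeq2 and edgeR on recovered reads called none either in these 7 comparisons.

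let-7b-5p and let-7c-5p took a larger mean share of the family after O3 in each table, given here as values with no test. In the SP-A2 males and KO females, the shares of let-7b-5p and let-7c-5p differed by far less than the SD. Together they made up a median of 13.0% of the family reads in the 23 FA mice (from 3.90% to 43.2%) and of 26.0% in the 22 O3 mice (from 4.31% to 48.4%). Without the 4 mice of low myeloid markers the medians were 12.5% (from 3.90% to 25.8%) and 24.1% (from 4.31% to 48.4%). In the co-ex females the share was 13.2% ± 3.95 (SD, n = 4) after FA and 30.9% ± 10.9 (SD, n = 4) after O3, and these groups did not overlap. In the SP-A2 males it was 9.44% ± 3.05 (SD, n = 3) and 9.75% ± 5.89 (SD, n = 3). In the KO females it was 24.1% ± 13.3 (SD, n = 4) and 25.1% ± 14.9 (SD, n = 4). Without their mice of low myeloid markers the KO females stood at 17.8% ± 5.66 (SD, n = 3) and 18.6% ± 8.95 (SD, n = 3).

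The ratio of let-7c-5p to let-7a-5p reads, 2 miRNAs that differ by 1 base, does not depend on the scaling of a mouse. It was 0.134 ± 0.0577 (SD, n = 4) after FA and 0.494 ± 0.209 (SD, n = 4) after O3 in the co-ex females, and 0.144 ± 0.128 (SD, n = 4) and 0.494 ± 0.251 (SD, n = 4) in the KO males. The mice overlapped in the KO males and not in the co-ex females. In the SP-A2 males it was 0.178 ± 0.0568 (SD, n = 3) and 0.199 ± 0.0820 (SD, n = 3), a difference smaller than the spread, and in the KO females 0.307 ± 0.229 (SD, n = 4) and 0.381 ± 0.260 (SD, n = 4). Leaving out the mice of low myeloid markers, 1 in each of these KO female groups, gave 0.198 ± 0.0892 (SD, n = 3) and 0.265 ± 0.144 (SD, n = 3). The share of the whole family in the reads was 35.5% ± 4.82 (SD, n = 4) after FA and 23.3% ± 5.45 (SD, n = 4) after O3 in the KO males, with no overlap. It was 21.9% ± 2.98 (SD, n = 3) and 29.6% ± 4.85 (SD, n = 3) in the SP-A2 males. There the exposures overlapped, with FA replicate 2 at 24.3% and O3 replicate 3 at 24.1%.

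**Figure D3:**
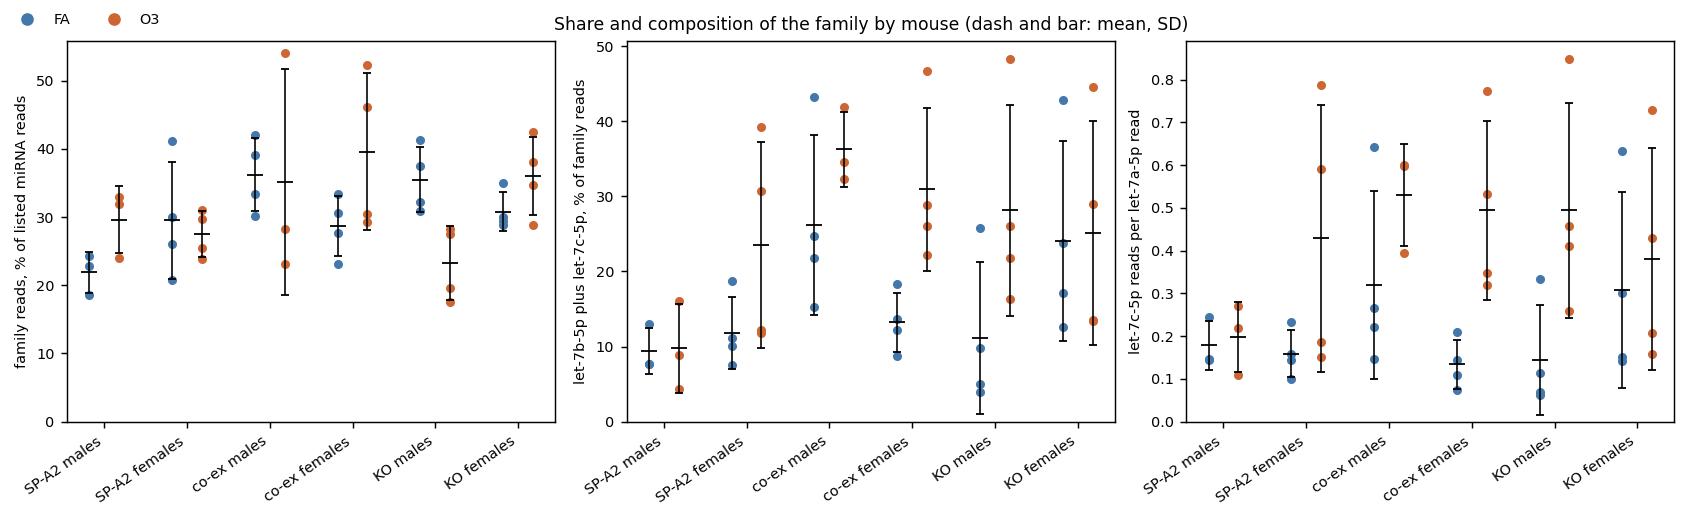
Share of the family in the listed reads (left), share of let-7b-5p plus let-7c-5p in the family reads (middle) and let-7c-5p reads per let-7a-5p read (right) in each mouse, FA in blue and O3 in orange, with mean and SD. In the co-ex females the O3 mice lie above the FA mice in the middle and right panels.

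The members did not vary as 1 block. Across the 45 mice, with each table centred on its mean, Spearman's rho was 0.95 between let-7b-5p and let-7c-5p and 0.83 between let-7a-5p and let-7d-5p. let-7f-5p, let-7g-5p and let-7i-5p went together, at 0.80 for the first pair and 0.82 for the second. let-7c-5p was near 0 with let-7f-5p, at -0.07, and below 0 with let-7e-5p, at -0.27. Centring on tables keeps the difference between O3 and FA in these values. With each group centred on its mean, let-7c-5p stood at 0.05 with let-7f-5p, -0.08 with let-7e-5p and 0.93 with let-7b-5p. Of the 196 other shared miRNAs, the most like let-7c-5p were miR-125b-5p (0.90), the epithelial marker miR-200c-3p (0.83) and the mesenchymal marker miR-214-3p (0.77), and the same 3 led for let-7b-5p. For let-7f-5p they were miR-146b-5p (0.90), miR-26b-5p (0.79) and miR-16-5p (0.75). miR-146b-5p also led for let-7a-5p (0.56) and let-7e-5p (0.62), and miR-16-5p led for let-7g-5p (0.80) and let-7i-5p (0.68). miR-98-5p was most like miR-7a-5p (0.69), while the best values of let-7d-5p and let-7k were both 0.50. These values are descriptions, since the miRNAs of a mouse share a library and its scaling. Those with other miRNAs were centred on tables only, so they also include the difference between O3 and FA.

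Cluster partners were read beside the members because they lie in the same genomic clusters. In the average over the tables, 3 of the 5 rose: miR-100-5p by 3.48 ± 0.52 (SE, adjusted p = 6.4e-06), miR-99a-5p by 1.88 ± 0.44 (SE, adjusted p = 0.0017) and miR-125b-5p by 1.75 ± 0.33 (SE, adjusted p = 1.3e-04) in limma. Of all miRNAs, 25.7% were called there, and the partners were chosen with earlier results of these data known. miR-99b-5p, at -0.00 ± 0.16 (SE, adjusted p = 1.00), and miR-125a-5p, at -0.22 ± 0.14 (SE, adjusted p = 0.33), which flank let-7e, did not pass the test. let-7a-5p differed by -0.08 although Mirlet7a-2 lies 5211 bases from Mir100, and its other hairpin is on chromosome 13. The 2 hairpins of let-7c-5p stand beside let-7b on chromosome 15 and beside miR-99a and miR-125b-2 on chromosome 16. let-7d-5p, let-7f-5p and let-7a-5p, of the chromosome 13 cluster, had averages of 0.07, -0.05 and -0.08.

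**Figure D4:**
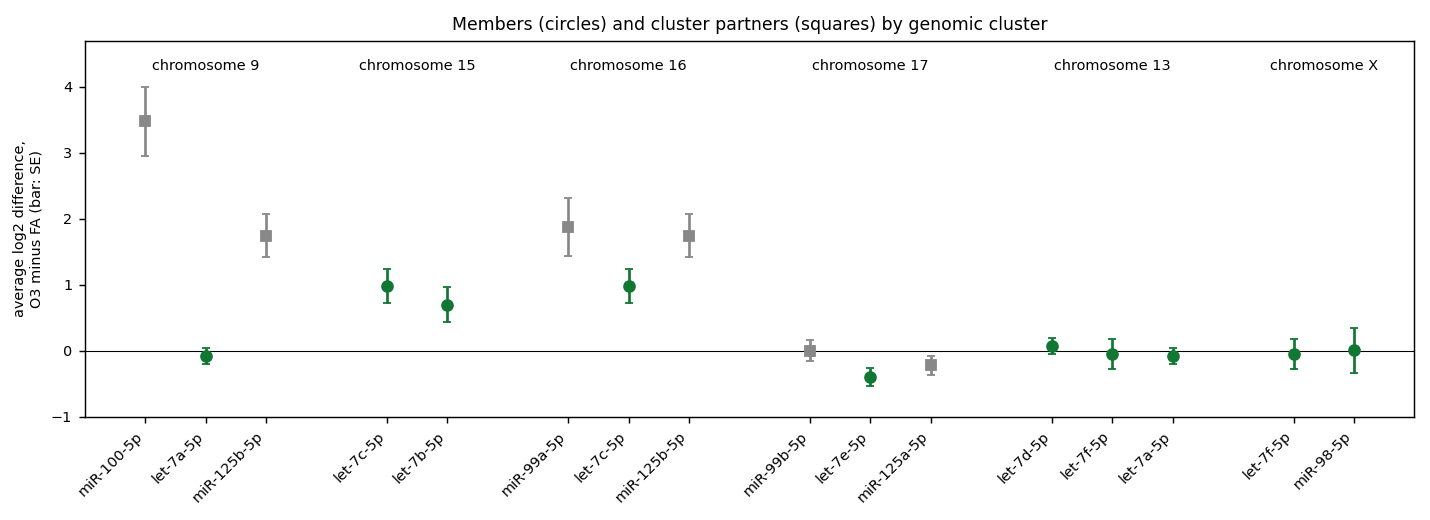
Average log2 difference between O3 and FA over the 6 tables, with SE, for members (green circles) and partner miRNAs (grey squares) grouped by genomic cluster. A mature miRNA with 2 hairpins is drawn in both clusters. The partners on chromosomes 9 and 16 lie above their let-7 members, and those on chromosome 17 lie near 0.

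The second question was whether the genotypes differed after the same exposure, with the sexes averaged. let-7a-5p, let-7b-5p, let-7d-5p and let-7e-5p were lower in SP-A2 than in co-ex mice after FA, and let-7i-5p was higher. On the scale of CPM over the shared miRNAs, let-7e-5p after FA ranged from 11105 to 30401, with a median of 11989, in the 7 SP-A2 mice and from 24807 to 39685, with a median of 32147, in the 8 co-ex mice. let-7b-5p ranged from 5575 to 40617, with a median of 9164, in the 7 SP-A2 mice and from 11021 to 127794, with a median of 28916, in the 8 co-ex mice. The ranges of the genotypes overlapped for these and for every other member.

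The log2 differences, SP-A2 minus co-ex, were -1.06 ± 0.25 (SE, adjusted p = 0.0035) for let-7e-5p, -0.89 ± 0.23 (SE, adjusted p = 0.0056) for let-7d-5p and -1.61 ± 0.48 (SE, adjusted p = 0.014) for let-7b-5p in edgeR's quasi-likelihood test. They were -0.63 ± 0.23 (SE, adjusted p = 0.053) for let-7a-5p and 1.00 ± 0.37 (SE, adjusted p = 0.051) for let-7i-5p. Of all 206 miRNAs, 25.7% were called, against 5 of the 10 members. let-7a-5p lost its call without SP-A2 male FA replicate 1 at -0.54 (adjusted p = 0.14) or SP-A2 female FA replicate 4 at -0.56 (adjusted p = 0.12). let-7c-5p, at -0.90 ± 0.45 (SE, adjusted p = 0.16), was called only without SP-A2 female FA replicate 1 at -1.16 (adjusted p = 0.067) or KO female FA replicate 3 at -1.05 (adjusted p = 0.095). This fit, also used between the sexes, spans all 45 mice. A mouse outside the groups compared therefore acts only through the shared scaling, dispersion and adjustment. Without the 4 mice of low myeloid markers, the same 5 members were called.

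After O3, 6 members were lower in SP-A2 than in co-ex mice, let-7a-5p, let-7b-5p, let-7c-5p, let-7d-5p, let-7e-5p and let-7k, and 13.1% of all miRNAs were called. let-7b-5p ranged from 4882 to 38217, with a median of 13449, in the 7 SP-A2 mice and from 33590.4 to 107928, with a median of 62256, in the 7 co-ex mice. let-7c-5p ranged from 10102 to 51241, with a median of 19267, in the 7 SP-A2 mice and from 24992 to 115945, with a median of 56288, in the 7 co-ex mice. The log2 difference was -2.24 ± 0.51 (SE, adjusted p = 0.003) for let-7b-5p and -1.58 ± 0.48 (SE, adjusted p = 0.026) for let-7c-5p in edgeR.

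let-7d-5p differed by -0.85 ± 0.24 (SE, adjusted p = 0.015) and let-7e-5p by -0.95 ± 0.26 (SE, adjusted p = 0.014) after O3 in edgeR, while let-7f-5p, let-7g-5p, let-7i-5p and miR-98-5p lay between -0.05 and 0.45 and were not called. let-7a-5p, at -0.63 ± 0.24 (SE, adjusted p = 0.096), lay close to the threshold and lost its call when any of 33 of the 45 mice was left out. Most of these 33 are not in the groups compared and act only through what the fit shares. let-7k, at -2.32 ± 0.82 (SE, adjusted p = 0.063), lost its call without any 1 of the 3 SP-A2 males after O3, SP-A2 female O3 replicate 2 or co-ex female O3 replicate 1 (adjusted p up to 0.19), and without co-ex male O3 replicate 2 it stood at -1.21 (adjusted p = 0.52). Without the 4 mice of low myeloid markers let-7k stood at -1.43 (adjusted p = 0.37), and the other 5 calls were kept. Whether the difference between SP-A2 and co-ex mice itself changed with O3 is the comparison of responses above, where no member was called.

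Against KO mice after FA, let-7a-5p, let-7b-5p, let-7d-5p, let-7e-5p and let-7k were lower in SP-A2 mice, and 6.80% of all miRNAs were called. let-7d-5p ranged from 13630.0 to 43354, with a median of 18692, in the 7 SP-A2 mice and from 28608 to 57624, with a median of 35294, in the 8 KO mice. Its log2 difference was -0.96 ± 0.23 (SE, adjusted p = 0.015) in edgeR, and the adjusted p of the other 4 lay between 0.062 and 0.083. Without the 4 mice of low myeloid markers, none of the 5 was called, and let-7d-5p stood at -0.72 (adjusted p = 0.23). The count also fell from 5 to 1 without SP-A2 male FA replicate 1, SP-A2 male FA replicate 3, SP-A2 female FA replicate 2, SP-A2 female FA replicate 3, SP-A2 female FA replicate 4, KO male FA replicate 4 or KO female FA replicate 3, to 2 without SP-A2 male FA replicate 2, to 3 without KO male FA replicate 2 and to 4 without KO male FA replicate 3, and it rose to 6 without SP-A2 female FA replicate 1. let-7k rested most on KO male FA replicate 4, and without it the difference was -1.23 (adjusted p = 0.68).

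No member was called for SP-A2 against KO after O3 (0% of all miRNAs), or for co-ex against KO after FA (0%) or O3 (0.485%), with 1, 2 and 2 members at an unadjusted p below 0.05 in edgeR. DESeq2 called 0, 1 and 0. let-7i-5p in co-ex against KO after FA, at -1.16 ± 0.36 (SE, adjusted p = 0.10), was called without co-ex male FA replicate 3, co-ex male O3 replicate 3, co-ex female FA replicate 2, co-ex female O3 replicate 2 or co-ex female O3 replicate 3, with -1.32 (adjusted p = 0.043) without co-ex female FA replicate 2. After O3, let-7a-5p and let-7d-5p were called without co-ex male O3 replicate 3, at 0.80 (adjusted p = 0.058) and 0.73 (adjusted p = 0.077). The comparisons share mice, so that a low value of SP-A2 mice enters both of its comparisons after FA. The myeloid markers summed from 57295 to 191555 (median 123961) rpm in SP-A2, from 3779.6 to 91426 (median 29795) rpm in co-ex and from 3690.1 to 111315 (median 55474) rpm in KO mice after FA. The erythroid markers summed from 6607 to 33876 (median 20409) rpm, from 2582 to 363180.0 (median 32381) rpm and from 7326 to 369419 (median 107479) rpm in the same order. Of the markers tested between SP-A2 and co-ex mice after FA, 3 of 6 myeloid, 3 of 9 epithelial and 1 of 4 mesenchymal ones were higher in SP-A2 mice. Of the erythroid ones, 1 of 2 was lower, and 25.7% of all miRNAs were called in either direction. After O3 the myeloid markers summed from 22254 to 161673 (median 54489) rpm in SP-A2 and from 7021 to 43893 (median 32789.6) rpm in co-ex mice, and the erythroid markers from 1290.3 to 142873 (median 15560.0) rpm and from 33801 to 358306 (median 73505) rpm. Of the markers tested there, 1 of 6 myeloid and 1 of 3 lymphoid ones were higher in SP-A2 mice and 1 of 2 erythroid ones was lower. In that comparison 13.1% of all miRNAs were called. The part of these cells in the genotype differences was not tested, and a genotype and its tables cannot be told apart.

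**Figure D5:**
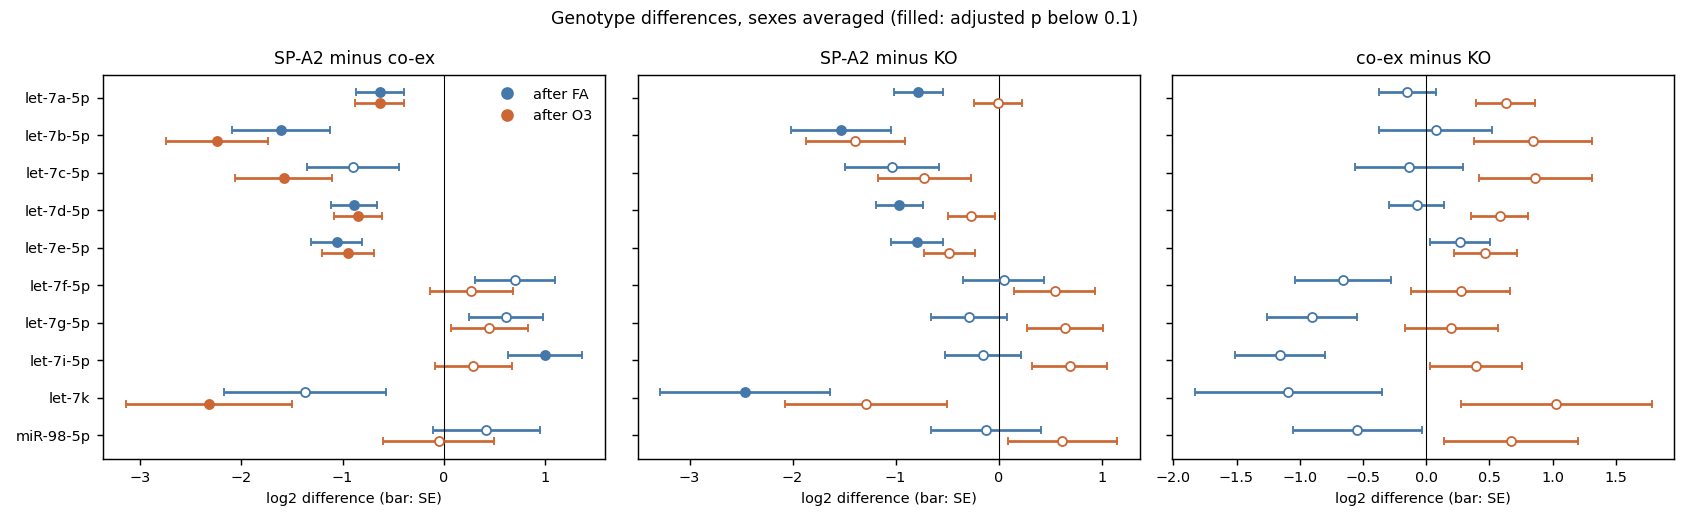
Log2 difference between genotypes with SE for each member, sexes averaged, after FA (blue) and O3 (orange), with filled points where adjusted p is below 0.1. let-7a-5p, let-7b-5p, let-7d-5p and let-7e-5p lie below 0 in SP-A2 minus co-ex mice after both exposures.

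The third question was whether males and females differed after the same exposure. The sexes of a genotype stood in separate tables, so sex and table cannot be told apart. No member was called in any of the 6 comparisons in edgeR. The shares of all miRNAs called were 0.485% and 0% in SP-A2, 0% and 0% in co-ex, and 0% and 0% in KO mice, after FA and O3. At an unadjusted p below 0.05 there were 3, 3, 3, 0, 3 and 4 members in the same order, and DESeq2 called 0, 2, 3, 0, 0 and 3. In KO mice after O3 all 10 members were on the lower side in males in edgeR and DESeq2. let-7e-5p had 12303, 14797, 5200.0 and 10718 CPM in the males and 31114, 23469, 19483 and 25081 CPM in the females, and let-7a-5p 60436, 82068, 47070.1 and 52205 CPM in the males and 148494, 113760.0, 103152 and 147004 CPM in the females. let-7d-5p had 17049, 27651, 11836 and 14401 CPM in the males and 40583, 33972, 30882 and 46793 CPM in the females. In these 3 members all 4 males lay below all 4 females, while 7.77% of all miRNAs did not overlap between the sexes in either direction. In the other comparisons, 5 members did not overlap in SP-A2 mice after FA (26.7% of all miRNAs), 1 after O3 (10.2%), 2 in co-ex mice after FA (3.40%), 0 after O3 (1.94%) and 1 in KO mice after FA (7.77%). The log2 differences in KO mice after O3 were led by let-7a-5p at -1.08 ± 0.32 (SE, adjusted p = 0.11), let-7d-5p at -1.10 ± 0.31 (SE, adjusted p = 0.11) and let-7e-5p at -1.20 ± 0.34 (SE, adjusted p = 0.11) in edgeR. These 3 were called without 1 of 6 mice, namely co-ex male FA replicate 3, co-ex male O3 replicate 3, co-ex female O3 replicate 3, KO male O3 replicate 2, KO female FA replicate 3 or KO female O3 replicate 3, and let-7d-5p also without SP-A2 female FA replicate 1. Without KO female FA replicate 3, which is outside this comparison, let-7d-5p stood at -1.20 (adjusted p = 0.037). Without the 4 mice of low myeloid markers, none of the 3 was called in edgeR. There let-7a-5p stood at -1.18, let-7d-5p at -1.16 and let-7e-5p at -1.36 (adjusted p = 0.14 for each). In co-ex mice after FA let-7b-5p and let-7c-5p were on the higher side in males, at 1.71 ± 0.65 (SE, adjusted p = 0.21) and 1.83 ± 0.63 (SE, adjusted p = 0.19). let-7c-5p was called without any 1 of 10 mice and let-7d-5p, at 0.96 ± 0.31 (SE, adjusted p = 0.19), without any 1 of 20, among them co-ex male FA replicate 4, without which let-7b-5p stood at 2.13 (adjusted p = 0.064), let-7c-5p at 2.29 (adjusted p = 0.049) and let-7d-5p at 1.23 (adjusted p = 0.021). Without the 4 mice of low myeloid markers let-7b-5p and let-7c-5p stood at 1.02 (adjusted p = 0.53) and 1.17 (adjusted p = 0.37). let-7d-5p then stood at 0.74 (adjusted p = 0.30). The myeloid markers summed to 177633 to 191555 rpm in SP-A2 males and 57295 to 123961 rpm in SP-A2 females after FA. They summed to 3779.6 to 36422 and 23168 to 91426 rpm in co-ex males and females after FA. In KO mice after O3 the sums were 30649 to 109013 rpm in males and 8141 to 53028 rpm in females. The part of these cells in the values by sex was not tested.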

How the data were processed

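Small RNA of AM from 45 mice was sequenced with the NEXTflex Small RNA kit, and each mouse was 1 replicate grouped by its labels. The authors deposited 6 tables, 1 per genotype and sex, of normalized signal: reads scaled by 1 factor for each mouse. The submitters' processing notes name CASAVA and edgeR, the study's methods name edgeR and TCC, and the table names mention DESeq2. The aligner and build are not given in the sources used here. The deposited p-value, q-value and rank columns were not used.

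Every value was a whole multiple of 1 step per mouse (tolerance 1e-06, 100% of values), which gave back reads. At least 100 values lay within 20 steps in 8 mice and as few as 13 in others, so recovery elsewhere rests on full precision. Read totals cover listed miRNAs only. No library repeated another (63 pairs within groups, chi-square over its degrees of freedom at least 49.4).

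O3 was compared with FA by limma 3.58.1 (R 4.3.3, trend) on log2(normalized value + 1) in each table and in 1 fit of 12 group means over the 206 shared miRNAs. Fold changes are on that scale, which understates low miRNAs. Levels between sexes and genotypes were compared by edgeR 4.0.16 (TMM, quasi-likelihood) on recovered reads, in 1 fit of 12 group means over all 45 mice. P-values were adjusted by Benjamini-Hochberg over all miRNAs at an FDR of 0.1, the level stated in the study's methods. Whether the fits find differences of the size reported here, at the spread of these mice, was not tested.

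Alternatives were pseudocounts of 0.1 and 10, filters on low values (at least 10 in as many mice as the smaller group) and low counts (at least 10 reads in at least 3 mice), median-ratio rescaling, edgeR with RLE, DESeq2 1.42.0, an FDR of 0.05, only the groups compared, a replicate block, medians and another denominator for shares, and each mouse left out. Leaving out the 4 mice with myeloid markers under 10000 rpm was chosen after seeing the data. The 10 members are all named, and for each the 3 most alike other miRNAs were sought. The members, marker lists and cluster partners were chosen with earlier results of these data known. Hairpins and sequences were taken by name and containment from RefSeq, and host genes from GENCODE M21.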

Additional observations from a re-analysis of the deposited data

Results flagged for a closer look

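In groups of 4 mice, 6 values of 90 member and group pairs stood apart from the other 3 mice by Dixon's ratio on the log2 scale at its 95% critical value, and chance gives about 1 in 20. let-7i-5p of SP-A2 female FA replicate 2 had a normalized value of 5759, below the 7846 to 8205 of the other 3 mice. miR-98-5p of co-ex female FA replicate 1 had a normalized value of 380.2, below the 1247 to 1511 of the other 3 mice. let-7k of KO male FA replicate 4 had a normalized value of 123, above the 4.62 to 7.49 of the other 3 mice. let-7f-5p of KO male O3 replicate 4 had a normalized value of 13084, below the 37604 to 44175 of the other 3 mice. let-7k of KO male O3 replicate 3 had a normalized value of 5.05, below the 11.5 to 13.3 of the other 3 mice. miR-98-5p of KO male O3 replicate 4 had a normalized value of 179, below the 1058 to 1393 of the other 3 mice. KO male O3 replicate 4 accounts for 2 of the 6.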

How the results depend on the processing

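Of the 11083 recomputed member differences, none reversed a called direction, 109 lost a call and 99 gained one, and the cause was not tested. The shares and ratios were recomputed 183 times, and none moved by 1 SD or more. By arithmetic, leaving out 1 mouse or taking the median cannot move a group's value that far. Those recomputations therefore say nothing on robustness, and only the other denominator for the family share could have moved so far. The count of members called for O3 averaged over the tables was 3, and from 3 to 5 with 1 mouse left out. In the co-ex females it was 1, with 2 under the low-value filter and DESeq2, 0 in edgeR with TMM or RLE, and 0 to 2 with 1 mouse left out. In the KO males it was 0, with 2 after rescaling, 2 in edgeR, 1 with RLE and 5 in DESeq2, and 0 to 1 with 1 mouse left out. It was 0 to 2 in the SP-A2 males with 1 mouse left out. For SP-A2 against co-ex after FA it was 5, with 3 at an FDR of 0.05 and 4 to 6 with 1 mouse left out. For SP-A2 against KO after FA it was 5, with 1 in RLE, 1 at an FDR of 0.05, 0 without the 4 mice of low myeloid markers and 1 to 6 with 1 mouse left out. All miRNAs called in that comparison numbered 14, with 8 in RLE, 5 with the replicate block and 0 without the 4 mice. For co-ex against KO it was 1 in DESeq2 after FA, 0 to 1 after FA and 0 to 2 after O3 with 1 mouse left out. Between the sexes it was 2 in DESeq2 in SP-A2 mice after O3, 3 in DESeq2 and 1 under the low-count filter in co-ex mice after FA (0 to 3 with 1 mouse left out), and 3 in DESeq2 in KO mice after O3 (0 to 3 with 1 mouse left out).

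Same-numbered FA and O3 mice correlated from -0.14 to 0.27, above 0.1 in 6 of 22 pairs. Mice of other numbers correlated from -0.26 to 0.28. These values do not settle whether same-numbered mice were paired, and the main fits treat them as unpaired. With the replicate block the count became 3 in the KO males, 3 for KO males against females after O3, 3 for SP-A2 against KO after FA and 1 for co-ex against KO after FA, and 5 for SP-A2 against co-ex after O3.

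All miRNAs called for O3 numbered 3 in the SP-A2 males (DESeq2 54, edgeR 5, block 1), 4 in the SP-A2 females (DESeq2 26, edgeR 2, block 0), 4 in the co-ex females (DESeq2 14, edgeR 0), 17 in the KO males (DESeq2 41) and 0 in the co-ex males and KO females (DESeq2 5 and 2, block 2 in the latter). For levels they went from 0 to 20 in co-ex males against females after FA, from 0 to 11 in SP-A2 males against females after O3, from 0 to 4 in KO males against females after O3, from 0 to 12 in co-ex against KO after FA and from 1 to 4 after O3 with DESeq2, and from 1 to 15 in SP-A2 males against females after FA with only the groups compared. With the 4 mice of low myeloid markers left out they went from 0 to 3 and 0 to 4 in co-ex males against females after FA and O3 and from 0 to 3 and 1 to 4 in co-ex against KO mice, where the block gave 11 after FA. The differences of the response stayed at 0 to 3 under these alternatives.

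Scaling moved the median log2 difference of all miRNAs from 0.19 to -0.08 in edgeR for the average and from -0.29 to -0.50 after rescaling in the KO males. Depth limits let-7k, with a median of 9 reads. Near-identical members share reads to an unknown extent.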

Other observations

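Of the other strands of the family's hairpins, let-7d-3p was the most abundant and was listed in all 6 tables. Its normalized value in the SP-A2 females ranged from 6382 to 10961 after FA and from 7346 to 12902 after O3, and it differed by 0.15 ± 0.16 (SE, adjusted p = 0.63) in the average over the tables in limma. let-7b-3p, the other strand listed in all tables, rose by 2.11 ± 0.71 (SE, adjusted p = 0.032) in the same fit. It was at 0 in 1 of 4 co-ex male, 2 of 4 co-ex female, 1 of 4 KO male and 1 of 4 KO female FA mice. It was also at 0 in 1 of 4 co-ex female O3 mice, so its difference is imprecise. In the co-ex males its mean normalized value was 261 after FA and 202 after O3. The call of let-7b-5p, from the same hairpin, depended on the scaling. From 2 to 9 other strands were listed in a table, and none was called in a single table by limma.

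let-7j, whose seed differs from that of the family by G8U, was listed at 0 in 2 of 4 co-ex male FA mice and in 3 of 4 KO male O3 mice, and its highest normalized value in the SP-A2 males was 24.4.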
